A study of Mus musculus with 4 samples.

Results

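Goblet cells are the secretory cells of the intestinal epithelium that fill the mucus layer, and 9 of their genes were followed here in RNA-seq libraries of NKT cells, a T cell subset that recognizes lipids presented by CD1d. The genes were *Muc2*, *Fcgbp*, *Tff3*, *Zg16*, *Spink4*, *Agr2*, *Spdef*, *Atoh1* and *Muc13*, and all 9 are rows of the deposited table of 25239 genes. They were chosen by the levels of *Muc2* and *Fcgbp*, known to differ widely between replicates of these libraries, so the levels given below are a description and were not tested. The 4 libraries came from the small intestine lamina propria (SI-LP) of wild-type mice (genotype C57BL/6Jax), 2 from each of 2 experiments. Replicates 3 and 4 belong to the first experiment and replicates 1 and 2 to the second, as the sample titles name them. The study used young adult mice of both sexes that received an anti-ARTC2 nanobody shortly before harvest, which all 4 libraries share. The SI-LP lymphocytes were released by collagenase after a wash that detaches the epithelium, and live TCRβ+ CD1d-PBS-57-tetramer+ cells lacking B220, CD11b, CD11c and CD8 were sorted. No epithelial marker was part of that gate. The labels number the samples but do not say that each is a separate mouse, so the spread between them may be partly technical.

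Gene assigned counts ranged from 3882803 to 8732858 per library, so 3 counts, taken as the smallest level that a library can show, correspond to 0.287 to 0.753 CPM (counts per 1000000 counts of a library). The precursor ribosomal RNA gene *Rn45s* took between 7.36% and 28.1% of the counts. The 8 T cell markers examined (such as *Cd3e* and *Thy1*) were all detected in all 4 libraries, with at least 116 counts each, as the label requires. CPM here is scaled by the trimmed mean of M values (TMM), and levels of different genes are compared as TPM, a share of transcripts for which counts are also divided by exonic length.

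In the intestine, MUC2 is packed in goblet cell granules as a disulfide-linked polymer, and on release it expands into the gel that separates bacteria from the epithelium. FCGBP, TFF3, ZG16 and SPINK4 are secreted with it, AGR2 is a protein disulfide isomerase of the endoplasmic reticulum needed for MUC2 production, and MUC13 is a transmembrane mucin of the apical surface that is shared with other epithelial cells. ATOH1 is the basic helix-loop-helix factor that commits progenitors to the secretory lineages, and SPDEF acts downstream of it in goblet cell maturation.

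On GRCm38, as deposited, *Muc2* lies at chr7:141690340-141754694 on the plus strand, with 6728 exonic bases. *Fcgbp* lies on the same chromosome at chr7:28071236-28120864 (plus strand, 7930 exonic bases), and so does *Zg16*, at chr7:127050156-127052675 on the minus strand, with 682. *Tff3* (chr17:31125306-31129611) and *Spdef* (chr17:27714446-27731003) are both on the minus strand, with 458 and 2779 exonic bases. *Spink4* (chr4:40920056-40931395), *Agr2* (chr12:35992925-36004081), *Atoh1* (chr6:64729125-64731245) and *Muc13* (chr16:33794037-33819927) are on the plus strand, with 393, 760, 2121 and 2969 exonic bases. The counts are taken over the exons of each gene, and no exon of these genes overlaps that of another annotated gene.

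The 250 bases before the start sites of *Muc2*, *Fcgbp* and *Agr2* are shown, from RefSeq on GRCm38.p6. E-boxes (CANNTG, the palindromic core bound by factors such as ATOH1) are in capitals. These genes ranged 66.2-fold, 160.5-fold and 136-fold in CPM between the libraries. The profiles of *Tff3* and *Muc13* were closer to that of *Muc2* than those of *Fcgbp* and *Agr2* were. The windows are chr7:141690090-141690339, chr7:28070986-28071235 and chr12:35992675-35992924, all on the plus strand and written 5′ to 3′.
Muc2: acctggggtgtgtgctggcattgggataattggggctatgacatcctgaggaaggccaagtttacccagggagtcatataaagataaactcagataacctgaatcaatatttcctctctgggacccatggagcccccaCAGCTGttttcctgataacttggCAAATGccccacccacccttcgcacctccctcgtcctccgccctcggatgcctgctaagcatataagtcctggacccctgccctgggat
Fcgbp: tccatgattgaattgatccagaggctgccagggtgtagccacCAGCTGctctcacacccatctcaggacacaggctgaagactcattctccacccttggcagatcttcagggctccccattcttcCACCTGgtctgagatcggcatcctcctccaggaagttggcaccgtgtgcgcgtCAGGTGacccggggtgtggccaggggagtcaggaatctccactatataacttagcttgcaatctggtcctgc
Agr2: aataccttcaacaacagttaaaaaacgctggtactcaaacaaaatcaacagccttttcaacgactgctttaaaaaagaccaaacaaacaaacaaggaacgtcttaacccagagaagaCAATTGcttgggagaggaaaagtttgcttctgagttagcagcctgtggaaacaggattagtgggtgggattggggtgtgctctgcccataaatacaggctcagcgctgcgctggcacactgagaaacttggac
The *Muc2* window held 2 E-boxes, 112 and 89 bases before the start, the *Fcgbp* window 3, at 208, 125 and 72 bases, and the *Agr2* window 1, at 133 bases. The first E-box in both the *Muc2* and the *Fcgbp* window reads CAGCTG. RefSeq windows were found for 6 of the 9 genes (7 windows, *Muc13* having 2). CANNTG, which reads the same on both strands, was in 5 of the 7 and in 66.2% of 32851 windows of this length, and CAGCTG, a special case of it, in 2 of the 7 and in 13.0%. CAGATG, searched on both strands and likewise a case of CANNTG, was in 1 of the 7, a *Muc13* window, and in 14.4% of all windows. These are matches of letters and not binding sites.

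*Muc2*, the gel-forming mucin, had 652 counts in replicate 1, 23292 in replicate 2, 151 in replicate 3 and 5297 in replicate 4. After scaling this was 90.3, 2230.3, 33.7 and 1329 CPM, a mean of 921 ± 1058 (SD, n = 4). Replicates 2 and 4 were high and replicates 1 and 3 low, with the highest library 66.2 times the lowest, and each experiment contributed a high and a low library. *Fcgbp*, whose protein is cross-linked into the MUC2 gel, had 1193, 35554, 95 and 7050 counts in replicates 1 to 4. It gave the widest spread of the 7 genes that were above 3 counts in all libraries. Its level was 165, 3404, 21.2 and 1769 CPM (mean 1340.0 ± 1588), and the highest library was 160.5 times the lowest. In bulk RNA of this kind, fewer cells of a type and less RNA per cell cannot be told apart.

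The small secreted proteins followed the same order of libraries with 1 exception. *Tff3*, the trefoil peptide of epithelial repair, reached 26.7, 950.3, 8.04 and 468 CPM in replicates 1 to 4 (193, 9924, 36 and 1865 counts). *Spink4*, a Kazal-type protease inhibitor, reached 6.51, 454, 4.46 and 401 CPM, from 47, 4746, 20 and 1598 counts. Replicates 2 and 4 were thus again above replicates 1 and 3, and for *Spink4* they lay close together. *Zg16*, a lectin that binds the cell wall of Gram-positive bacteria, departed from this pattern, with 71.2, 115, 38.6 and 880 CPM (514, 1203, 173 and 3506 counts). Its replicate 4 was 7.64 times its replicate 2, whereas for the other 8 genes this ratio ranged from 0.211 (*Atoh1*) to 0.882 (*Spink4*). In replicate 2, the library with the most mucus gene counts, *Zg16* was thus far below its level in replicate 4.

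*Agr2* reached 24.0, 2035, 15.0 and 496 CPM in replicates 1 to 4 (173, 21250, 67 and 1976 counts). *Muc13* reached 67.2, 843, 10.5 and 450 CPM (485, 8806, 47 and 1795 counts), which is again the order 2, 4, 1, 3 shown by *Muc2* and *Fcgbp*. The transcription factors were at the limit of detection in the low libraries. *Spdef* had 0 counts in replicate 1 and 2 in replicate 3, against 247 in replicate 2 and 33 in replicate 4. *Atoh1* had 0 counts in both low libraries, against 248 in replicate 2 and 20 in replicate 4. At this depth a count of 0 allows up to 0.416 CPM in replicate 1 and 0.670 CPM in replicate 3, while the levels in replicate 2 were 23.7 CPM for each gene, and those in replicate 4 were 8.28 (*Spdef*) and 5.02 (*Atoh1*).

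**Figure D1:**
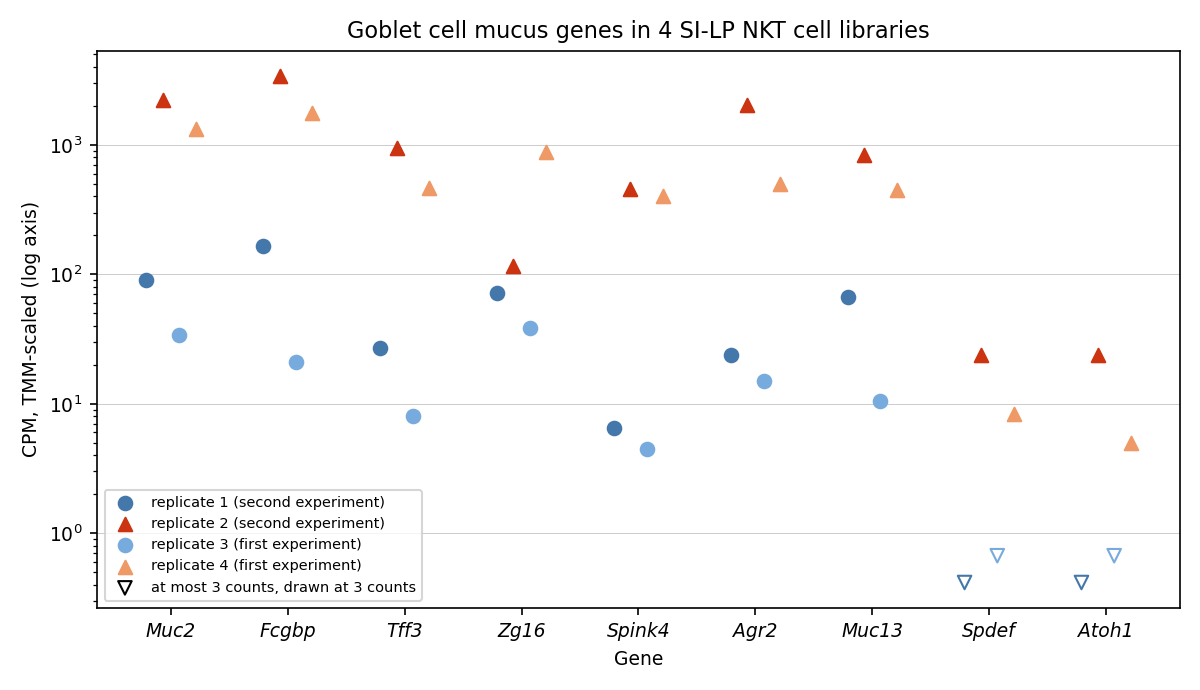
Level of each of the 9 mucus genes in the 4 libraries, in CPM on a log axis, with replicates 1 and 2 from the second and 3 and 4 from the first experiment. Values at or under 3 counts are drawn at that floor. For all 9 genes, replicates 2 and 4 lie above replicates 1 and 3, and *Zg16* is the gene whose highest point is replicate 4.

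For all 9 genes the SD over the 4 libraries exceeded the mean. Replicate 2 was the highest library for 8 of them and replicate 3 the lowest for 7. *Spdef* was at 0 in replicate 1, and *Atoh1* was at 0 in both replicates 1 and 3. The log2 CPM range across libraries ran from 4.50 (*Zg16*) to 7.31 (*Fcgbp*), and exceeded 3 for all 9, as it did for 37.0% of the 11689 genes that reached 10 counts in 2 or more libraries. Since the genes were chosen for a spread of this kind, that share is given for reference only. The 9 genes together made up 0.0450% of all counts in replicate 1 (95% Wilson interval 0.0435 to 0.0466), 1.21% in replicate 2 (1.20 to 1.21), 0.0108% in replicate 3 (0.00994 to 0.0117) and 0.596% in replicate 4 (0.588 to 0.604). These intervals cover counting error only and are far narrower than the gaps between libraries.

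Per transcript length the order of the genes was different from that by counts. *Agr2* had the highest mean, 2499 ± 3895 TPM (SD, n = 4), followed by *Tff3* (2283 ± 2963), *Spink4* (1540.4 ± 1784) and *Zg16* (1041 ± 1443). The large proteins *Fcgbp* (486 ± 609 TPM) and *Muc2* (390.4 ± 473) came next, then *Muc13* (332 ± 396), and the transcription factors *Atoh1* (10.1 ± 16.5) and *Spdef* (8.49 ± 12.3) were last. No neighbours in this order differed by more than the larger of their SDs. Within libraries, however, *Tff3* exceeded *Spink4* and *Muc13* exceeded *Atoh1* in 4 of 4, whereas *Agr2* exceeded *Tff3* in 2 of 4 and *Spink4* exceeded *Zg16* in 1 of 4. *Zg16* was in fact first among the 9 genes in replicates 1, 3 and 4, with 314, 139 and 3193 TPM, and *Agr2* was first in replicate 2, with 8239 TPM. In that library *Agr2* stood at the 99.97th percentile and *Tff3*, with 6385 TPM, at the 99.94th, although the cells had been sorted as T cells. These percentiles are among the 11689 genes that reached 10 counts in 2 or more libraries.

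The comparison of the libraries within each experiment asks how far the replicates of 1 condition differed when the experiment was held constant. In the first experiment replicate 4 exceeded replicate 3 in *Fcgbp* by 83.4-fold (95% exact interval from counting error 68.1 to 103) and in *Muc2* by 39.4-fold (33.5 to 46.7). In the second experiment replicate 2 exceeded replicate 1 in *Fcgbp* by 20.6-fold (19.4 to 21.8) and in *Muc2* by 24.7-fold (22.8 to 26.7). Both genes therefore differed by more than an order of magnitude in each experiment, with *Fcgbp* varying more in the first. *Tff3* differed by 58.2-fold in the first and 35.5-fold in the second experiment, *Spink4* by 89.8-fold and 69.8-fold, and *Muc13* by 42.9-fold and 12.5-fold. *Agr2* had a larger ratio in the second experiment than in the first, at 84.9-fold (73.1 to 99.2) against 33.2-fold (26.0 to 43.0). *Zg16* differed by 22.8-fold (19.6 to 26.7) in the first experiment and by only 1.62-fold (1.46 to 1.80) in the second. *Spdef* was 18.5-fold higher in replicate 4 than in replicate 3 (4.74 to 159.5, resting on 2 counts in replicate 3) and at least 56.9-fold higher in replicate 2 than in replicate 1, taking 3 counts as the floor of the latter. *Atoh1* was at least 7.49-fold and at least 57.1-fold higher. There is 1 library on each side of these ratios, so none has a replicate check.

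On the log2 scale, 9 of the 9 genes were higher by more than 1 in replicate 4 than in replicate 3, where 30.6% of the 11689 genes were, and 8 of the 9 in replicate 2 than in replicate 1, where 34.1% were. The 8 genes other than *Zg16* were higher in both experiments, as were 19.0% of all genes tested. The median difference of the 9 genes was 5.29 in the first and 5.14 in the second experiment, against medians of 0.08 and 0.13 over all genes.

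**Figure D2:**
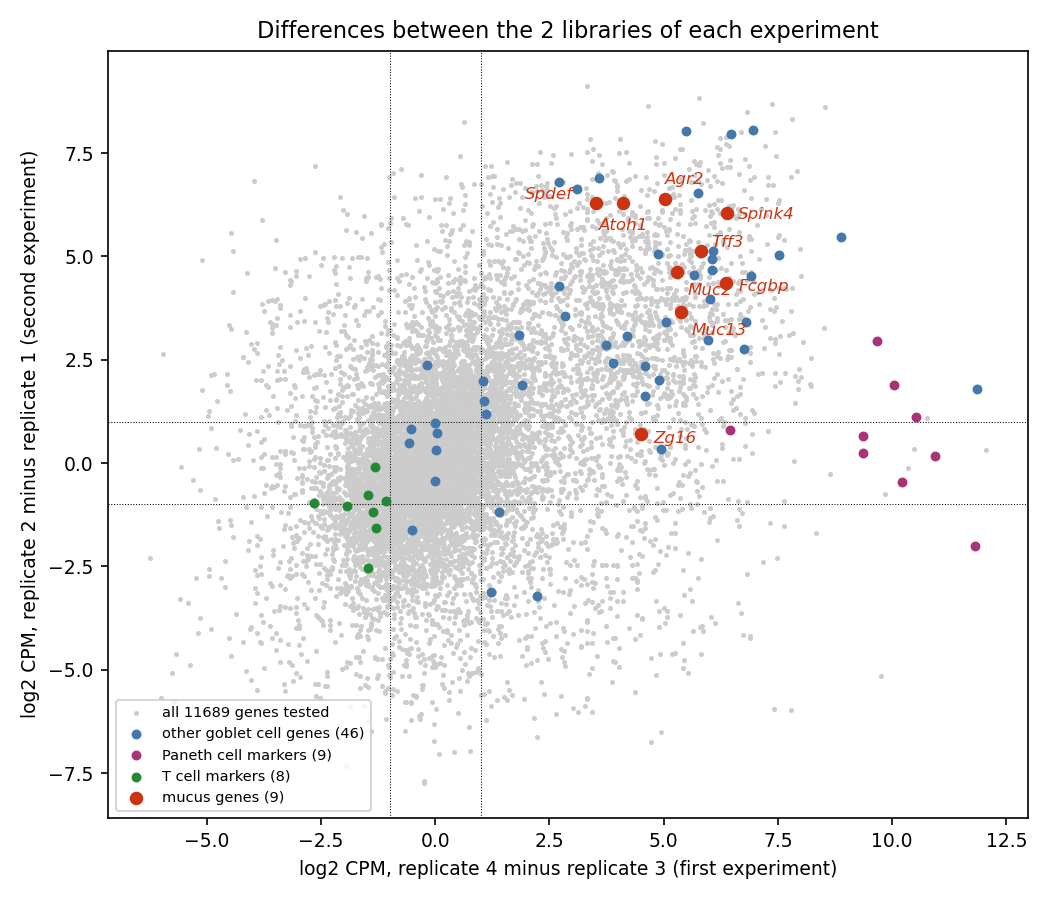
Difference in log2 CPM between the 2 libraries of each experiment for the 11689 genes tested (grey), with the 9 mucus genes (red), the other goblet cell genes, Paneth cell and T cell markers in colour; dotted lines mark a difference of 1 in either direction. The mucus genes other than *Zg16* lie in the upper right, *Zg16* at 4.50 and 0.69, and the 8 T cell markers lie below 0 on both axes.

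Markers of the epithelium as a whole moved with the mucus genes. The 14 pan-epithelial markers, such as *Epcam* and *Krt19*, made up 0.0393% of counts in replicate 1 and 0.488% in replicate 2. In replicates 3 and 4 they made up 0.00505% and 0.361%. Against 19.0% of all genes tested, 14 of the 14 markers were higher by more than 1 log2 unit in the high library of both experiments. Their summed CPM ranged 66.0-fold, compared with 76.4-fold for the 9 mucus genes. *Krt19*, a keratin of simple epithelia, reached 930 CPM in replicate 2 and 926 in replicate 4 but 84.7 and 11.2 in replicates 1 and 3. *Epcam* reached 661 and 441 CPM in replicates 2 and 4 against 61.0 and 6.47. The 8 T cell markers went the other way. Their summed CPM was 3201 and 4877 in replicates 1 and 3 against 1129.8 and 1831 in replicates 2 and 4. Their median log2 difference was -1.42 for replicate 4 minus 3 and -0.997 for replicate 2 minus 1. Over all genes these medians were 0.08 and 0.13. *Cd3e*, a subunit of the T cell receptor complex, had 1835 and 2085 CPM in replicates 1 and 3 against 616 and 855 in replicates 2 and 4. The part of epithelial or T cell transcripts in the spread of the mucus genes was not tested.

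Set against the pan-epithelial markers of the same library, the summed mucus genes varied far less than in CPM, which was not so for *Zg16*. The sum was 1147 counts per 1000 epithelial counts in replicate 1 (95% interval 1091 to 1206), 2468 in replicate 2 (2441 to 2496), 2134 in replicate 3 (1850.0 to 2461) and 1651 in replicate 4 (1617 to 1686), a mean of 1849.9 ± 576 (SD, n = 4) and a range of 2.15-fold. Against the 11 enterocyte markers the same sum ranged 18.5-fold, from 474 per 1000 in replicate 3 to 8769 in replicate 2. This was wider than against the pan-epithelial markers but narrower than the 76.4-fold range in CPM. Per 1000 pan-epithelial counts, *Muc13* was the steadiest gene, with 171, 206, 169.7 and 128 per 1000 in replicates 1 to 4, and *Muc2* had 230, 546, 545 and 378. *Fcgbp* had 420, 834, 343 and 503 per 1000 and *Tff3* 68.0, 233, 130 and 133, ranges of 2.43-fold and 3.42-fold. Apart from *Spdef* and *Atoh1*, which were at 0 in 1 or 2 libraries, the genes that varied most on this scale were *Spink4* (6.89-fold, lowest in replicate 1 at 16.5), *Agr2* (8.18-fold, from 60.9 in replicate 1 to 498 in replicate 2) and *Zg16*. *Zg16* ran from 28.2 per 1000 in replicate 2 (26.6 to 29.9) to 625 in replicate 3 (517 to 755), a range of 22.1-fold that is close to its 22.8-fold range in CPM, so that the library with the most mucus transcripts had the least *Zg16* relative to its epithelial markers.

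The other lineages of the crypt and villus differed among the libraries in their own ways. The summed counts of the 5 crypt stem cell markers stayed within 1.53-fold relative to the pan-epithelial markers, at 231, 271, 354 and 352 per 1000 in replicates 1 to 4. That sum was mostly *Olfm4* and *Slc12a2*, the only ones detected in replicate 3 (53 and 45 counts), so it does not describe each marker. The 11 enterocyte markers ran from 281 per 1000 in replicate 2 to 4502 in replicate 3, a range of 16.0-fold, so replicate 2 was lowest for these absorptive genes as it was for *Zg16*. Single enterocyte markers differed in this. In replicate 4, 11 of 11 were higher than in replicate 3 by more than 1 log2 unit, as were 30.6% of all genes tested. In replicate 2, 4 of 11 were higher than in replicate 1 by that margin, near the 34.1% of all genes tested. *Fabp2*, the intestinal fatty acid binding protein, had 39.5, 630.3, 39.5 and 550.5 CPM in replicates 1 to 4, high in replicates 2 and 4 as was *Muc2*. *Apoa1*, an apolipoprotein secreted by enterocytes, had 25.8, 22.0, 40.6 and 734 CPM, high in replicate 4 alone as was *Zg16*. The 11 Paneth cell markers ran from 133 per 1000 in replicate 2 to 8462 in replicate 4, where they made up 3.05% of all counts, and *Lyz1*, the Paneth cell lysozyme, reached 21151 CPM there against 10.5 in replicate 3. Whether the composition of the epithelial transcripts bears on *Zg16* was not tested.

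**Figure D3:**
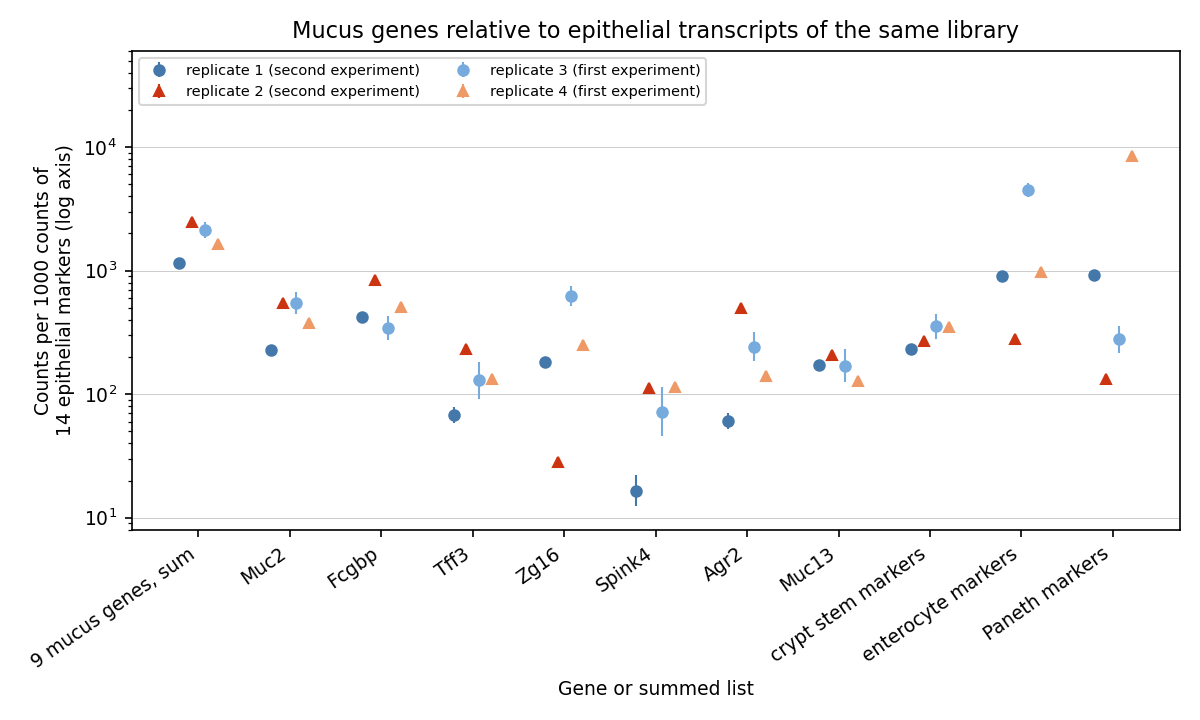
Counts of the 9 mucus genes together, of 7 of them and of 3 marker lists per 1000 counts of the 14 pan-epithelial markers of the same library, on a log axis, with 95% intervals from counting error. The summed mucus genes range 2.15-fold, *Zg16* 22.1-fold and the Paneth markers 63.6-fold; replicate 2 is lowest for *Zg16*, the enterocyte and the Paneth markers.

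The make-up of the mucus gene counts showed the same exception. These shares are of counts, which favour long genes, so they are compared between libraries and not between genes. *Muc2* took 20.0%, 22.1%, 25.5% and 22.9% of the counts of the 9 genes in replicates 1 to 4, and *Fcgbp* took 36.6%, 33.8%, 16.1% and 30.5%. The share of *Muc2* was thus nearly constant over libraries that differed by 76.4-fold in the summed level. *Zg16* took 15.8%, 1.14%, 29.3% and 15.2%, and *Agr2* took 5.31%, 20.2%, 11.3% and 8.54%. Replicate 2 thus had the highest share of *Agr2* and the lowest of *Zg16*. *Muc13* accounted for 14.9% in replicate 1 and for 7.76% to 8.37% in the others. *Tff3* lay between 5.93% and 9.43% and *Spink4* between 1.44% and 6.91%. *Spdef* and *Atoh1* never exceeded 0.338%. As shares of the summed TPM of the 9 genes, *Muc2* took 4.30% to 5.01%, *Agr2* 11.8% to 37.5% and *Zg16* 2.36% (replicate 2) to 48.6% (replicate 3). Per 1000 *Muc2* counts, *Tff3* was the most constant partner (238 to 426, 1.79-fold), and *Zg16* the least (51.6 to 1146, 22.2-fold).

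**Figure D4:**
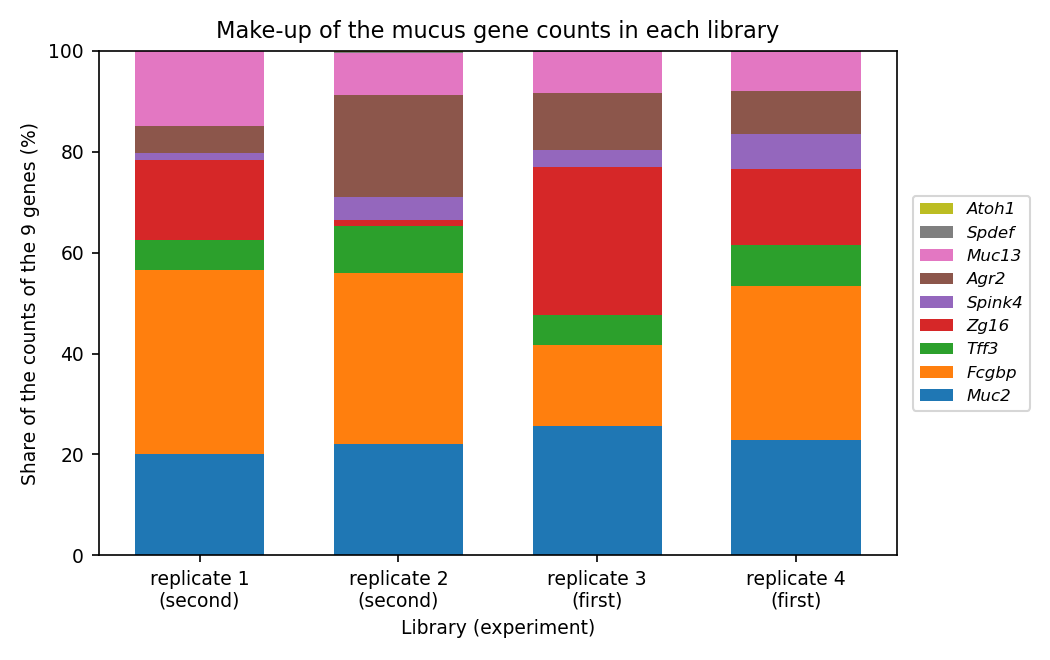
Share of each gene in the summed counts of the 9 mucus genes, in percent and not corrected for gene length, in the 4 libraries. *Muc2* takes 20.0% to 25.5% in every library, *Zg16* 1.14% in replicate 2 against 15.2% to 29.3% in the others, and *Agr2* is at its highest, 20.2%, in replicate 2.

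Other genes of the goblet cell programme were followed in a list of 55, of which 54 are in the table and 46 passed the filter on low counts. Of these 46, 34 were higher by more than 1 log2 unit in the high library of both experiments and 0 were lower in both, with median differences of 4.05 in the first and 2.92 in the second experiment. The share of 19.0% and the medians of 0.08 and 0.13 for all genes apply here too. *Muc5ac*, *Retnlb* and *Tff1*, which are typical of the stomach, the colon or inflamed epithelium, had 0 counts in all 4 libraries.

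Among the mucins, 2 of the 5 that passed the filter were higher in both experiments. These were the transmembrane mucins *Muc3* (90.5, 367, 31.9 and 960 CPM in replicates 1 to 4) and *Muc4* (28.1, 193, 0.893 and 130 CPM). *Muc6*, the gel-forming mucin of gastric and duodenal glands, had 26.5, 2.59, 4.02 and 19.8 CPM and was lowest in replicate 2, unlike *Muc2*. Among the other secreted and membrane proteins, 6 of 8 were higher in both. *Clca1*, a metalloprotease of the mucus gel, had 27.4, 711, 9.38 and 642 CPM, and *Lypd8*, a GPI-anchored protein that binds flagellated bacteria, had 201, 1596, 15.6 and 1005. *Ang4*, an antimicrobial ribonuclease made by Paneth and goblet cells, had 4.30, 15.7, 0 and 1140.1 CPM, so it was high in replicate 4 alone, where the Paneth markers were high.

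Of the genes for mucin-type O-glycosylation, 9 of 11 were higher in both experiments, although the 3 most abundant of them differed less than *Muc2*. *C1galt1*, which makes the core 1 structure, had 26.9, 62.0, 18.8 and 41.1 CPM in replicates 1 to 4, and *C1galt1c1*, its chaperone, had 5.96, 53.1, 8.93 and 32.6 CPM. *Galnt7*, an initiating transferase, had 45.9, 181, 41.5 and 86.3 CPM. For folding and secretion, 11 of 15 were higher in both, and here the 3 most abundant were among those that were not: *Xbp1*, the transcription factor of the unfolded protein response, had 286, 472, 133 and 135 CPM, *Pdia6*, a disulfide isomerase, had 50.0, 262, 74.8 and 66.0, and *Vamp8*, a granule fusion protein, had 95.9, 135, 90.4 and 60.2. *Agr2* thus differed between libraries far more than *Pdia6*, which acts in the same compartment in most secretory cells.

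Among the factors of transcription and Notch signalling, 6 of 7 were higher in both experiments. *Hes1*, the Notch target that represses *Atoh1* in progenitors, had 2.49, 23.1, 1.56 and 33.9 CPM in replicates 1 to 4, and *Klf4*, a factor of goblet cell differentiation, had 41.7, 154, 32.4 and 122. Both were thus high in the libraries in which *Atoh1* and *Spdef* were detected above 3 counts. *Gfi1*, which acts downstream of ATOH1 but is also expressed by T cells, had 57.4, 18.5, 40.8 and 28.9 CPM and was lower in replicates 2 and 4.

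Not all other lineages shared the order of the libraries. The 5 plasma cell markers took 0.662% and 0.814% of counts in replicates 1 and 2, against 0.000419% and 0.0220% in replicates 3 and 4, so they were higher in both libraries of the second experiment. Within the first experiment they were also higher in replicate 4, the library with more mucus transcripts. There 4 of 5 were higher by more than 1 log2 unit, against 1 of 5 in the second. Of all genes tested, 30.6% and 34.1% were. *Jchain*, the joining chain of secreted IgA and IgM, had 6099 and 6383 CPM in the second experiment and 2.46 and 196 in the first. The 8 tuft cell markers stayed at or below 0.00350% and the 10 enteroendocrine markers at or below 0.0393%. Relative to the pan-epithelial markers, the summed enteroendocrine markers ranged 2.55-fold (46.9 to 119.7 per 1000). Different genes made up this sum, with 13 counts of 1 detected marker in replicate 3 and *Gip* at 1001 of 1524 counts in replicate 4. B cell markers took at most 0.00703%, myeloid markers at most 0.0146% and stromal markers at most 0.0194%. The 3 mast cell markers were at or below 0.000129%, with *Mcpt1* and *Mcpt2* at 0 throughout.

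The genes whose profile over the 4 libraries was closest to that of *Muc2* were found as the root mean square difference of log2 CPM after centring each gene. They were *Ngef* (0.07), *Sorbs2* (0.08), *Galnt5* (0.14), *Sox4* (0.16) and *Gal3st2* (0.19), all with 3 counts or fewer in replicate 3, so that the prior count sets their level there. For *Fcgbp* they were *Fam129b* (0.09), *Foxa3* (0.23), *Tead1* (0.25), *Gpx2* (0.26) and *Epha2* (0.27), of which all but *Gpx2* had at most 1 count in replicate 3. *Galnt5*, an O-glycosylation enzyme, and *Foxa3*, a forkhead factor, are in the list of other goblet cell genes. Among 11688 genes ranked by closeness to *Muc2*, *Tff3* was at place 17 (0.29), *Muc13* at 68 (0.49), *Fcgbp* at 148 (0.58) and *Agr2* at 208 (0.65), while *Zg16* was at 1866 (1.77). With 4 libraries, these distances describe a likeness in how high and low libraries alternate.

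The 2 experiments were compared in all 11689 genes with edgeR's quasi-likelihood test, as a measure of replicate error. Of the 9 mucus genes 0 were called at an adjusted p under 0.05 and 0 at an unadjusted p under 0.05, against 0 of all genes (0%) adjusted and 248 unadjusted. DESeq2 called 0 of the 9 and 41 of all genes (0.351%). The log2 difference of the second minus the first experiment was 0.77 ± 1.76 (SE) for *Muc2*, 0.996 ± 1.88 for *Fcgbp* and 2.01 ± 1.99 for *Agr2*. Each SE was worked back from the log2 difference and the F statistic of the edgeR test. *Zg16* was the only gene of the 9 with a lower mean in the second experiment, at -2.30 ± 1.28 (unadjusted p = 0.118 and adjusted p = 0.9997, edgeR). These standard errors are as large as most of the differences, each experiment holding both a high and a low library, and the common biological coefficient of variation of the libraries was 0.976.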

How the data were processed

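RNA-seq was analysed in 4 libraries of SI-LP NKT cells of 1 condition. The authors deposited raw counts per gene, made with featureCounts 1.6.4 over exons of a RefSeq annotation (mm10) from primary alignments of read pairs, with no strand option. The paper names HISAT2 and GRCm39 and the file header mm10, and coordinates are given as deposited. Gene lengths deposited by the authors were used for TPM. Of 6 library columns, 2 match no label and were not used. *Rn45s* was kept in library sizes.

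CPM was computed with TMM factors and log2 CPM with a prior count of 2. Genes that reached 10 counts in 2 or more libraries entered the test between experiments (edgeR 4.0.16, R 4.3.3, Benjamini-Hochberg adjustment), with DESeq2 1.42.0 as an alternative. Shares have 95% Wilson intervals and ratios exact (Clopper-Pearson) ones. These and the floor of 3 counts cover counting error only, since reads without molecular identifiers are not independent molecules. Alternatives were other scalings, filters, prior counts and reference markers, and leaving out each library.

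Besides the 9 genes, the text names the 3 genes highest by mean TPM of each role of the goblet list, up to 2 of the highest of the marker lists, and the 5 closest profiles of *Muc2* and *Fcgbp*. Genes at 0 in all libraries were named after their values were seen. The members and the lists were chosen with earlier results of these data known.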

Additional observations from a re-analysis of the deposited data

Results flagged for a closer look

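The level of *Zg16* stood out in 1 library. Replicate 4 had 880 CPM, while replicates 1, 2 and 3 had 71.2, 115 and 38.6 CPM, so the gap between replicate 4 and the next library took 0.909 of the whole range, above the 95% critical value of Dixon's test for 4 samples. It was 1 of 20 values examined in this way, of which chance alone gives about 1. Since the genes were chosen for their spread between these libraries, the flag describes raw CPM and is no test of *Zg16*. It was not computed on the log2 scale. Replicate 4 was also the library with the highest Paneth cell markers (3.05% of its counts) and the highest *Apoa1* (734 CPM), whereas *Fabp2*, the enterocyte marker with the highest mean TPM, was highest in replicate 2 (630.3 CPM against 550.5), and their part in the level of *Zg16* was not tested. On the scale of counts per 1000 pan-epithelial counts, replicate 4 (250.1) lay between replicates 1 (181) and 3 (625).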

How the results depend on the processing

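No paired analysis was possible because there is only 1 condition. The number of genes called between the experiments was 0, and it became 60 with no filter on low counts and 41 with DESeq2; leaving out each replicate gave 0 to 7 (7 without replicate 3 and 6 without replicate 4), and the other alternatives gave 0. Of the 9 mucus genes 0 were called with the other scalings and filters or with DESeq2. Leaving out a replicate left 1 library in its experiment, so for these genes those fits are not read. The 8 mucus genes higher in both experiments became 1 (*Atoh1*) when the libraries were scaled to the pan-epithelial markers. *Atoh1* had 0 counts in replicates 1 and 3, so the prior count sets its level there. Per 1000 pan-epithelial counts it had 1.43 in replicate 4, within the counting interval of replicate 3 (0 to 13.9). With that scaling 3.64% of all genes were higher in both, and the medians of all genes were -5.68 and -3.17. The 8 genes became 9 when scaled to the T cell markers (45.9% of all genes). The members per 1000 counts averaged 3057 with enterocyte in place of pan-epithelial markers, against 1849.9, and their range over the libraries widened from 2.15-fold to 18.5-fold. The summed level, 4117 CPM, ran from 2129.7 without replicate 2 to 5446 without replicate 3. Depth limits *Spdef* and *Atoh1*, which were at or under 3 counts in replicates 1 and 3.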
